A study of Mus musculus with 6 samples.

Results

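Deubiquitinases are proteases that remove ubiquitin from proteins, and SUMO proteases do the same for the small ubiquitin-like modifier SUMO. In retinal RNA from adult WT and Trim9 KO mice, 66 genes of these enzymes were measured, of 18193 genes in all. Members were chosen by gene symbol from the array's annotation. They comprise 47 ubiquitin-specific proteases (USP, symbols Usp with a number, Usp9y left out), 3 ubiquitin C-terminal hydrolases (UCH, Uchl), 9 ovarian tumor domain proteases (OTU, Otub and Otud) and 7 sentrin-specific proteases (SENP). They were read by 166 probe sets that name 1 gene. Another 3 probe sets name a gene of these classes together with a further gene and were not used, and 1 of them is the probe set shared by Uchl3 and Uchl4.

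Ubiquitin is attached to proteins by ligases, of which the TRIM family, including Trim9, is a large group. Deubiquitinases work in the opposite direction. They rescue proteins from the proteasome, recycle ubiquitin at the proteasome, edit ubiquitin on histones and sort membrane proteins at endosomes. SENP enzymes trim the SUMO precursors and take SUMO off its targets, while Senp8 acts on a further modifier, NEDD8. Uchl1 is known as an abundant protein of neurons, including retinal ganglion cells.

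The samples were retinas of 3 WT and 3 Trim9 KO mice, described in the labels as adult littermates. The KO mice lack exon 1 of Trim9, which was excised by Cre after a cross to CMV-cre mice, a broadly active driver, so the loss is not restricted to the retina. A treatment note in the labels speaks of embryos, whereas the tissue is given as adult retina in every sample. RNA of each sample was amplified, biotin-labelled and read on its own Affymetrix array. The labels do not say which animal gave which sample, so p-values measure only the spread between these samples. All levels are log2(intensity + 16), where intensity is the linear signal scaled by the authors, and differences are Trim9 KO minus WT on that scale. Each gene was read through its brightest probe set, by the mean of all 6 arrays, so a level describes a probe set and cannot be ranked between genes.

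The arrays were not alike within a genotype. Trim9 KO replicate 1 stood apart, with Pearson's r of 0.47 to 0.52 to the other arrays across probe sets, whereas the highest r between other arrays was 0.887 (WT replicate 1 and Trim9 KO replicate 3). The median intensity of the arrays ranged from 218 to 807. The 3′ control probe set of Actb exceeded the 5′ one, a gap that widens in degraded RNA, by 1.49 to 6.50 on the log2 scale, and the same gap for Gapdh was -0.14 on WT replicate 3 and 6.28 to 8.10 on the others. Xist was high, at 15.2, on WT replicate 3 and Trim9 KO replicate 3 only, so each genotype held 1 such array when the 5 X-linked members (Usp9x, Usp11, Usp26, Usp27x and Otud5) were compared. Trim9 itself measured 12.05, 10.80 and 10.72 in WT and 10.56, 9.00 and 8.58 in Trim9 KO, so the genotypes did not overlap, but the difference of -1.81 ± 0.99 (SE, n = 3 per genotype) had an exact permutation p of 0.1, the smallest that 3 against 3 arrays can give. The position of its probe set relative to exon 1 is not given in the sources used here, so this is a limited check of the labels.

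Most rod markers were at high levels, but Prph2 ranged from 5.11 to 16.17 between arrays and Rom1 from 8.75 to 16.09. Of the 7 measured rod markers, 6 had a lower mean in Trim9 KO, against 44.8% of all genes. This was not particular to rods. A lower mean was also found for 4 of 5 cone, 3 of 4 Müller glia, 3 of 4 amacrine, 2 of 3 bipolar and 1 of 4 ganglion cell markers. All 5 pigment epithelium markers (Rpe65, Ttr, Tyrp1, Dct and Best1) and all 3 endothelial markers had a higher mean. The summed intensity of the pigment epithelium markers was 72609 to 473146 in WT and 338990 to 1361780 in Trim9 KO, and that of the 7 rod markers was 619939 to 863036 and 367332 to 663618. These ranges overlapped between genotypes, no summed marker list was at 0, and the part of tissue composition in the results below was not tested. None of the 4 lens markers exceeded the median probe set in its mean level, but their summed intensity was 3176 on Trim9 KO replicate 1 against 230 to 663 on the other arrays, and Crygs measured 11.53 there against 4.65 to 7.55. The same array had the highest sums of the pigment epithelium, endothelial and blood and microglia markers. These sums were set by single bright genes. Ttr (20.37 there) dominated the pigment epithelium sum. Dct (12.17) and Best1 (9.80) were also highest on Trim9 KO replicate 1, whereas Rpe65 and Tyrp1 were highest on Trim9 KO replicate 3 (13.29 and 13.56). Crygs dominated the lens sum. Crygd (6.90) was also highest on Trim9 KO replicate 1, whereas Cryaa and Bfsp2 were highest on WT arrays, and Bfsp2 was lowest on Trim9 KO replicate 1 (6.14).

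The deubiquitinases and SUMO proteases were mostly read by brighter probe sets. The mean level of 62 of the 66 genes (93.9%) lay above 8.31, the median of all probe sets, as did that of 66.3% of all genes read in the same way. The other 4 were Usp26, Usp44, Usp50 and Uchl4, and the mean of each of these was higher in Trim9 KO. Genes with dim signals had higher means in Trim9 KO generally, since 34.6% of all genes at or below that median and 50.0% of those above it had a lower mean.

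No member passed the test between genotypes. At a Benjamini-Hochberg adjusted p under 0.05 in limma, 0% of the 45037 probe sets were called, and the lowest adjusted p was 0.999 among all probe sets and among the members. At an unadjusted p under 0.05, limma called 1296 probe sets (2.88%) and 2.56% of genes read by their brightest probe set, but 0 of the 66 members. Among the 166 probe sets of the members, 2 had an unadjusted p under 0.05 (1.20%), 1 of Senp2 and 1 of Usp7, and neither was the probe set that stood for its gene.

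Of the 66 members, 30 had a lower mean and 36 a higher mean in Trim9 KO. The share with a lower mean was 45.5%, against 44.8% of all genes. Their median log2 difference was 0.10, against 0.14 for all genes, and single members ranged from -2.88 (Usp22) to 1.81 (Usp44). With the array medians made equal, 43 of the 66 members and 10398 of the 18193 genes had a lower mean, and the median of all genes moved to -0.19. Small differences thus changed direction with the scaling. With 1 array left out, 29 to 38 members had a lower mean. A difference of at least 2-fold downward was measured for 12 members (18.2%, against 13.5% of all genes) and upward for 8 (12.1%, against 20.6%). The median SD within a genotype was 1.02 on the log2 scale, or 1.21 over all genes.

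By class, the USP genes were split evenly, with 23 lower and 24 higher means and a median of 0.021, but 31 of 47 had a lower mean with equal array medians (median -0.30). Of the OTU genes, 2 of 9 had a lower mean (median 0.20). That direction turned with the mean of all probe sets of a gene, where 6 of 9 were lower (median -0.57), and with equal array medians, where 5 of 9 were lower (median -0.12). Of the SENP genes, 3 of 7 had a lower mean (median 0.0092), and 5 of 7 with equal array medians (median -0.31). Of the UCH genes, 2 of 3 had a lower mean (median -0.66), and 1 of 3 with the mean of all probe sets (median 0.41). Differences between the classes were not tested.

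**Figure D1:**
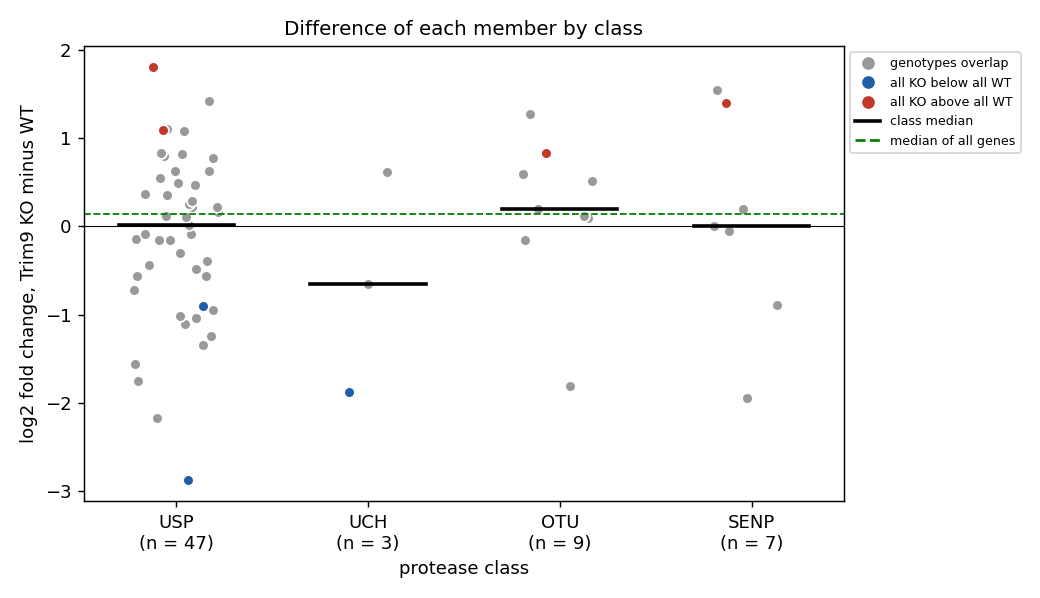
Log2 difference (Trim9 KO minus WT, vertical axis) of each of the 66 members, 1 point per gene, by protease class. Black lines are class medians, the dashed line is the median of all genes (0.14), and coloured points are the 7 genes whose genotypes did not overlap. The points of the USP, UCH, OTU and SENP classes lie on both sides of 0, and the 2 largest differences are Usp22 (-2.88) and Usp40 (-2.18).

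In 7 members the 3 arrays of one genotype lay entirely on one side of the other 3. Every Trim9 KO array was below every WT array for Uchl1, Usp22 and Usp47, which is 4.55% of the members against 2.89% of all genes. Every Trim9 KO array was above every WT array for Otud7b, Senp6, Usp24 and Usp44, which is 6.06% against 5.35% of all genes. These shares are near the background. All 7 had an exact permutation p of 0.1 and a limma adjusted p of 0.999.

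Trim9 KO replicate 1 gave the lowest level of 23 members (34.8%), whereas it gave the lowest level of 22.3% of all genes. This was not particular to the members. In gene lists described below, the share was 42.9% for deubiquitinases of other folds, 42.9% for NEDD8 and ISG15 conjugation, 37.5% for USP partners and 36.4% for the SUMO pathway. The array also gave the highest level of 31.3% of all genes and 19.7% of members. All genes were not matched to the members by level. Of the 47 USP genes, 19 were lowest there. So were 19 of the 30 members with a lower mean in Trim9 KO. That choice of members itself favours a lowest value on a KO array, and the same share over all genes was not computed. Trim9 KO replicate 1 was also the array with the highest summed lens and pigment epithelium signals, which came mostly from Crygs and Ttr. The part of attached tissue in these low levels was not tested. The sign of the difference was kept when any 1 array was left out for 34 members (51.5%, against 50.7% of all genes), of which 19 had a lower and 15 a higher mean.

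**Figure D2:**
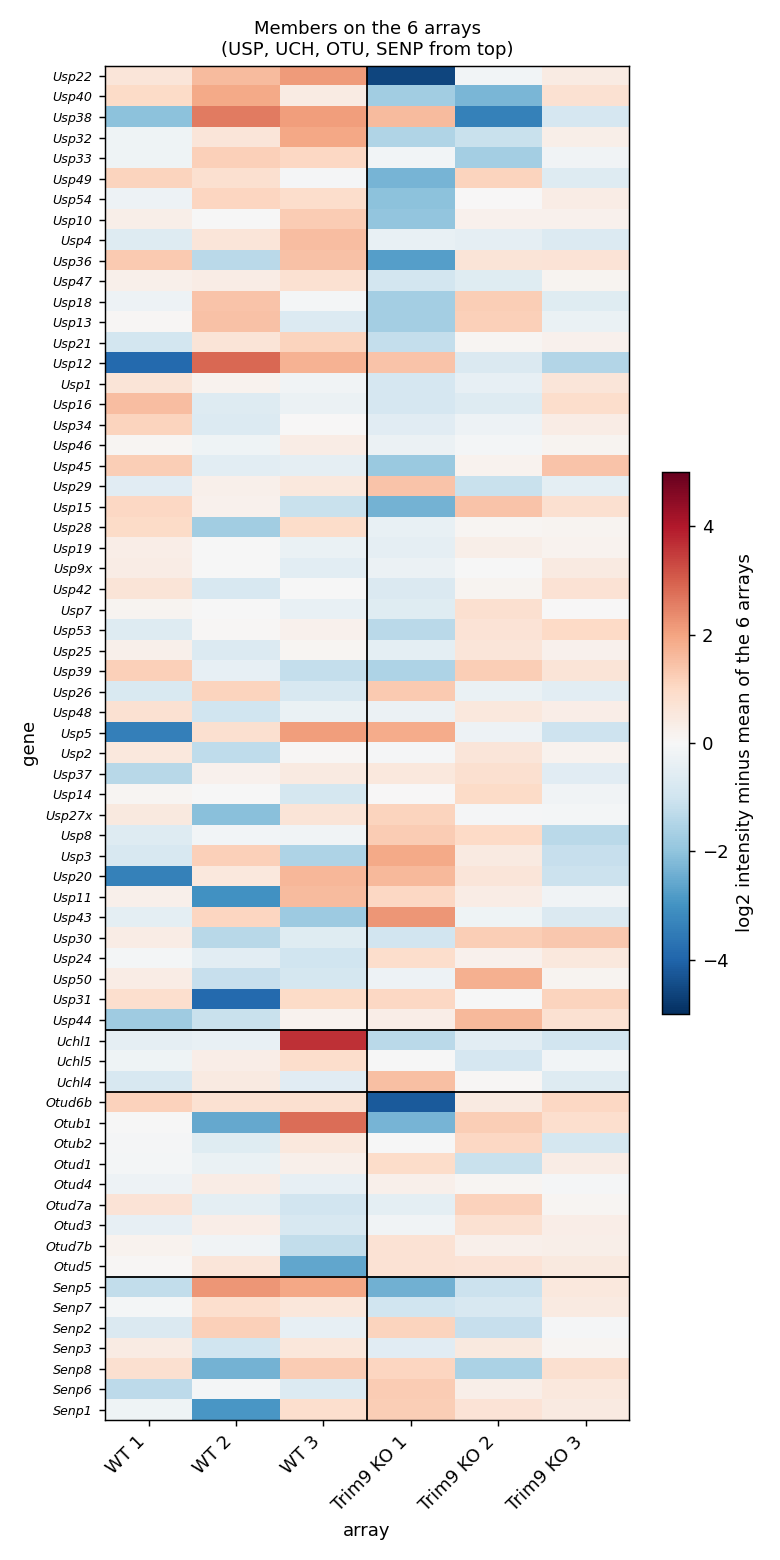
Level of each member on each array, as log2 intensity minus the gene's mean over the 6 arrays (colour, blue below and red above the mean). Genes are rows, in the order of the log2 difference within each class, and the 3 WT arrays are left of the vertical line. The blue cells of the upper USP rows gather in Trim9 KO replicate 1, with the strongest at Usp22 and, among the OTU genes, Otud6b.

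Among the USP genes with a role at chromatin or in DNA repair, 13 were measured, and 7 had a lower and 6 a higher mean (median -0.088). Usp22, the enzyme of the SAGA coactivator complex that removes ubiquitin from histones, had the largest difference of all members. It measured 11.96, 12.93 and 13.47 in WT and 6.75, 11.21 and 11.77 in Trim9 KO. All Trim9 KO values were below the lowest WT value, and replicate 1 was far below the other 2. The difference was -2.88 ± 1.32 (SE), with an unadjusted p of 0.0519 in limma. It was -1.30 without Trim9 KO replicate 1, and the second probe set of Usp22 gave 1.27, with Trim9 KO replicate 1 the highest of the 6 arrays (11.52).

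Usp47, which acts on the repair enzyme DNA polymerase beta, measured 12.95, 13.06 and 13.45 in WT and 11.78, 12.11 and 12.85 in Trim9 KO. The genotypes did not overlap, and the spread within each was small. The difference was -0.91 ± 0.91 (SE), and -1.21 to -0.67 with 1 array left out. Its other probe sets gave -2.27 and -0.45, so all 3 lay on the same side, and the second also had no overlap between genotypes. Usp47 was singled out after its values were seen.

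Usp44, a regulator of the mitotic checkpoint that also acts on histone ubiquitin, had the largest difference upward. It measured 4.64, 5.30 and 6.58 in WT and 6.75, 8.03 and 7.17 in Trim9 KO. The genotypes did not overlap, but all 6 values were dimmer than the median probe set. The difference was 1.81 ± 0.98 (SE), and 1.38 to 2.35 with 1 array left out. Usp49, another histone deubiquitinase, measured 11.83, 11.49 and 10.66 in WT and 8.37, 11.82 and 10.08 in Trim9 KO. The difference of -1.24 was carried by Trim9 KO replicate 1, and without that array it was -0.38.

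Usp7, which protects Mdm2 and other nuclear proteins from degradation, measured 14.19, 14.06 and 13.69 in WT and 13.47, 14.88 and 14.09 in Trim9 KO. The genotypes overlapped, and the difference was 0.17 ± 0.92 (SE). Its 7 probe sets ranged from -3.45 to 0.74 in their differences. The lowest of them measured 6.31, 10.67 and 13.00 in WT and 6.14, 8.03 and 5.46 in Trim9 KO, so it was as low on WT replicate 1 as in the KO retinas.

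Among the USP genes that act at endosomes, membranes or mitochondria, 6 of 12 had a lower and 6 a higher mean (median -0.034). Usp32, a membrane-attached enzyme, measured 12.18, 12.99 and 14.30 in WT and 10.86, 11.29 and 12.66 in Trim9 KO. The ranges overlapped through Trim9 KO replicate 3. The difference was -1.56 ± 1.01 (SE), and all 3 probe sets of Usp32 had a lower mean in Trim9 KO. Usp33, which is known to act on the axon guidance receptor Robo1, measured 12.34, 13.73 and 13.60 in WT and 12.40, 10.87 and 12.35 in Trim9 KO, a difference of -1.35 ± 0.97 (SE). WT replicate 1 lay within the range of the Trim9 KO arrays.

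Usp30, which removes ubiquitin from the mitochondrial outer membrane, measured 11.31, 9.58 and 10.37 in WT and 10.01, 12.20 and 12.30 in Trim9 KO. The higher mean (1.08 ± 1.04 SE) came from Trim9 KO replicates 2 and 3, while replicate 1 lay among the WT arrays. Usp9x, an X-linked enzyme of cell adhesion and protein trafficking, varied little, at 13.05, 12.64 and 12.15 in WT and 12.39, 12.65 and 13.13 in Trim9 KO. The difference was 0.11 ± 0.91 (SE), but its 7 probe sets did not share a direction, and the third by signal gave -1.17 with no overlap between genotypes.

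Usp14, which releases ubiquitin at the proteasome, measured 13.19, 13.09 and 12.20 in WT and 13.11, 14.07 and 12.94 in Trim9 KO. The difference of 0.54 ± 0.93 (SE) was smaller than its error, and its other probe sets gave -0.51, 0.94 and -1.21. Uchl5, another deubiquitinase bound to the proteasome and a member of the UCH class, measured 11.57, 12.15 and 12.66 in WT and 11.77, 10.95 and 11.67 in Trim9 KO. Its difference was -0.66 ± 0.92 (SE), and its second probe set gave 1.48.

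Usp5, which takes apart free ubiquitin chains, varied by more than 5 log2 units within WT (6.25, 10.46 and 11.75) and measured 11.51, 9.41 and 8.63 in Trim9 KO. Its difference was 0.36 and moved from -1.26 to 1.50 when 1 array was left out. Usp18, the protease of the interferon-induced modifier ISG15, measured 8.11, 9.81 and 8.29 in WT and 6.69, 9.60 and 7.75 in Trim9 KO (difference -0.72 ± 1.07 SE). Its genotypes overlapped.

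Of 4 USP genes that have been described as lacking a working catalytic site (Usp39, Usp50, Usp53 and Usp54), 1 had a lower and 3 a higher mean. That description is not settled for Usp53 and Usp54. The splicing factor Usp39 measured 14.47, 12.87 and 12.07 in WT and 11.73, 14.51 and 13.93 in Trim9 KO, with a difference of 0.25 ± 1.10 (SE). Both genotypes spanned more than 2 log2 units.

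Usp24 had the smallest spread of the members whose genotypes did not overlap. It measured 10.27, 9.81 and 9.34 in WT and 11.23, 10.57 and 10.89 in Trim9 KO. The difference was 1.09 ± 0.91 (SE), and 0.86 to 1.32 with 1 array left out, but its other probe sets gave -1.93, 0.83 and 0.27. Usp40 measured 10.61, 11.53 and 10.08 in WT and 7.92, 7.38 and 10.40 in Trim9 KO. Trim9 KO replicate 3 lay within the WT range, and the difference was -2.18 ± 1.08 (SE) with an exact permutation p of 0.2. Its other probe sets gave 0.53, -0.39 and 1.45.

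Usp38 varied widely in both genotypes, with 6.63, 11.29 and 10.76 in WT and 10.25, 5.32 and 7.86 in Trim9 KO (difference -1.75 ± 1.51 SE). Usp34, which acts on axin in Wnt signalling, measured 14.67, 12.87 and 13.59 in WT and 13.01, 13.30 and 13.92 in Trim9 KO. All Trim9 KO values of Usp34 lay within the WT range, and the difference was -0.30 ± 0.95 (SE).

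**Figure D3:**
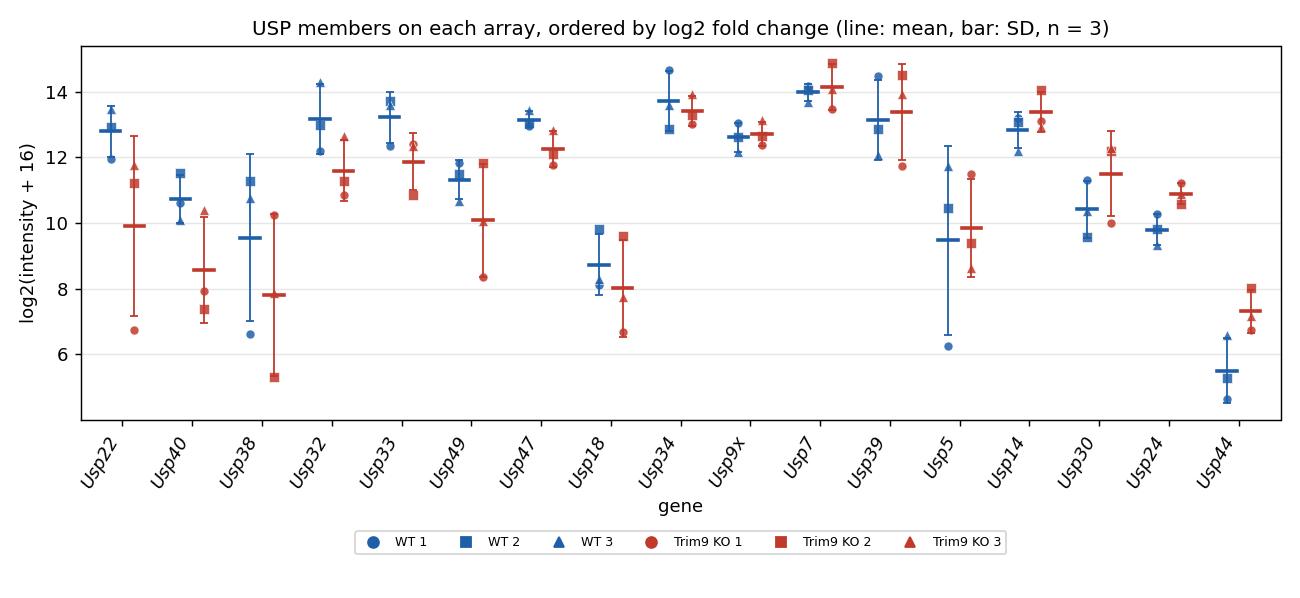
Levels of the named USP genes, as log2(intensity + 16), on each array, with blue for WT, red for Trim9 KO and the marker shape giving the replicate. Genes are ordered by the log2 difference, lines are means and bars SDs (n = 3). Usp22 is at the left with the red circle (Trim9 KO replicate 1) at 6.75, and Usp44 is at the right.

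In the UCH class, Uchl1 had the largest difference. It measured 9.59, 9.66 and 13.71 in WT and 8.70, 9.53 and 9.11 in Trim9 KO. The genotypes did not overlap, but the mean difference of -1.88 ± 1.21 (SE) rested mostly on WT replicate 3, and without that array it was -0.52. In bulk retina, fewer cells of a type and less RNA per cell cannot be told apart. The summed intensity of the 4 measured ganglion cell markers (Pou4f1, Sncg, Nefl and Rbpms) was 86160 on WT replicate 3, within the range of 34640 to 150375 on the other arrays. Nefl was the brightest of them, and the markers did not go together. Sncg was highest on WT replicate 3, at 13.46 against 9.61 to 10.51 on the other arrays. Pou4f1 was lowest there (11.84), and Nefl and Rbpms lay within the range of the other arrays. Pou4f1 was also higher on every Trim9 KO array (13.87, 15.06 and 13.56) than on any WT array (13.46, 12.01 and 11.84). Of the 4 markers, 3 had a higher mean in Trim9 KO and 1, Sncg, a lower one. The part of ganglion cell content in the Uchl1 values was not tested. Uchl4, a mouse gene closely related to Uchl3, measured 4.52, 5.77 and 4.78 in WT and 6.85, 5.38 and 4.69 in Trim9 KO, near the lowest signals of the arrays.

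Otud4 and Otud3 were the steadiest OTU genes within a genotype, by their SDs. Otud4 measured 12.89, 13.50 and 12.72 in WT and 13.40, 13.24 and 13.08 in Trim9 KO, a difference of 0.20 ± 0.90 (SE). Otud3 measured 11.26, 11.97 and 10.84 in WT and 11.46, 12.41 and 11.97 in Trim9 KO (0.59 ± 0.92 SE). The genotypes overlapped for both. Their other probe sets pointed the other way, with -0.99 and -0.93 for Otud4 and, with every Trim9 KO array below every WT array, -2.07 for Otud3. Otub2 and Otud1 differed by 0.09 and 0.11, less than the SD within either genotype.

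Otud7b, also known as Cezanne, is a regulator of NF-kappaB signalling. It measured 12.30, 11.95 and 10.92 in WT and 12.88, 12.38 and 12.42 in Trim9 KO. The genotypes were narrowly separated, and the difference was 0.84 ± 0.93 (SE). The other probe sets of Otud7b gave 0.03, -1.91 and -1.41. Its paralog Otud7a measured 11.85, 10.67 and 10.20 in WT and 10.68, 12.31 and 11.27 in Trim9 KO (0.52 ± 0.98 SE), and all 3 of its probe sets had a higher mean in Trim9 KO.

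A single array set the difference of Otud6b and Otud5. Otud6b measured 11.83, 11.47 and 11.49 in WT and 6.51, 11.14 and 11.72 in Trim9 KO. Its difference of -1.81 ± 1.33 (SE) was -0.17 without Trim9 KO replicate 1. Otud5, an X-linked regulator of interferon responses, measured 10.96, 11.52 and 8.31 in WT and 11.64, 11.59 and 11.38 in Trim9 KO. Its difference of 1.27 ± 1.07 (SE) was 0.29 without WT replicate 3, and it was -1.16 when probe sets with a suffix for shared sequence were not used.

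Otub1, which inhibits ubiquitin-conjugating enzymes as well as cleaving chains, scattered widely in both genotypes. It measured 8.96, 6.45 and 11.80 in WT and 6.68, 10.20 and 9.84 in Trim9 KO. The difference was -0.16 ± 1.44 (SE) and changed sign to 1.21 without WT replicate 3. Its other probe set gave -1.64.

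Among the SENP genes, Senp6 and Senp7, which shorten SUMO chains, had differences of opposite sign. Senp6 measured 8.97, 10.20 and 9.62 in WT and 11.56, 10.60 and 10.81 in Trim9 KO. The genotypes did not overlap, and the difference was 1.40 ± 0.93 (SE), or 1.08 to 1.70 with 1 array left out. Its other probe sets gave -0.03 and -0.06. Senp7 measured 10.62, 11.56 and 11.28 in WT and 9.70, 9.90 and 11.17 in Trim9 KO, a difference of -0.89 ± 0.94 (SE) in which Trim9 KO replicate 3 lay within the WT range. Its other probe sets gave -0.76 and 2.02.

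Senp1 and Senp2 process SUMO precursors and release SUMO from proteins. Senp1 measured 8.65, 5.96 and 9.70 in WT and 10.09, 9.54 and 9.31 in Trim9 KO. The low WT replicate 2 accounted for much of the difference of 1.55 ± 1.12 (SE), which was 0.47 without it. Its other probe sets gave -0.44 and -0.33. Senp2 measured 9.28, 11.21 and 9.61 in WT and 11.12, 8.87 and 9.96 in Trim9 KO (-0.05 ± 1.03 SE). All 4 probe sets of Senp2 had a lower mean in Trim9 KO, and 1 of them, at 5.19, 8.90 and 11.04 in WT and 6.08, 5.30 and 4.37 in Trim9 KO, gave -3.12.

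Of the nucleolar SENP genes, Senp3 measured 12.42, 11.03 and 12.60 in WT and 11.46, 12.50 and 12.11 in Trim9 KO, a difference of 0.01 ± 0.95 (SE). Senp5 measured 8.21, 11.64 and 11.34 in WT and 7.02, 8.36 and 9.97 in Trim9 KO. WT replicate 1 lay among the Trim9 KO arrays, the difference was -1.95 ± 1.21 (SE), and the other probe set of Senp5 gave 1.46. Senp8, the NEDD8 protease, measured 9.26, 6.09 and 9.71 in WT and 9.54, 6.87 and 9.25 in Trim9 KO (0.20 ± 1.23 SE). Replicate 2 was the lowest in both genotypes. Its other probe sets gave 0.68 and, with no overlap between genotypes, -1.67.

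**Figure D4:**
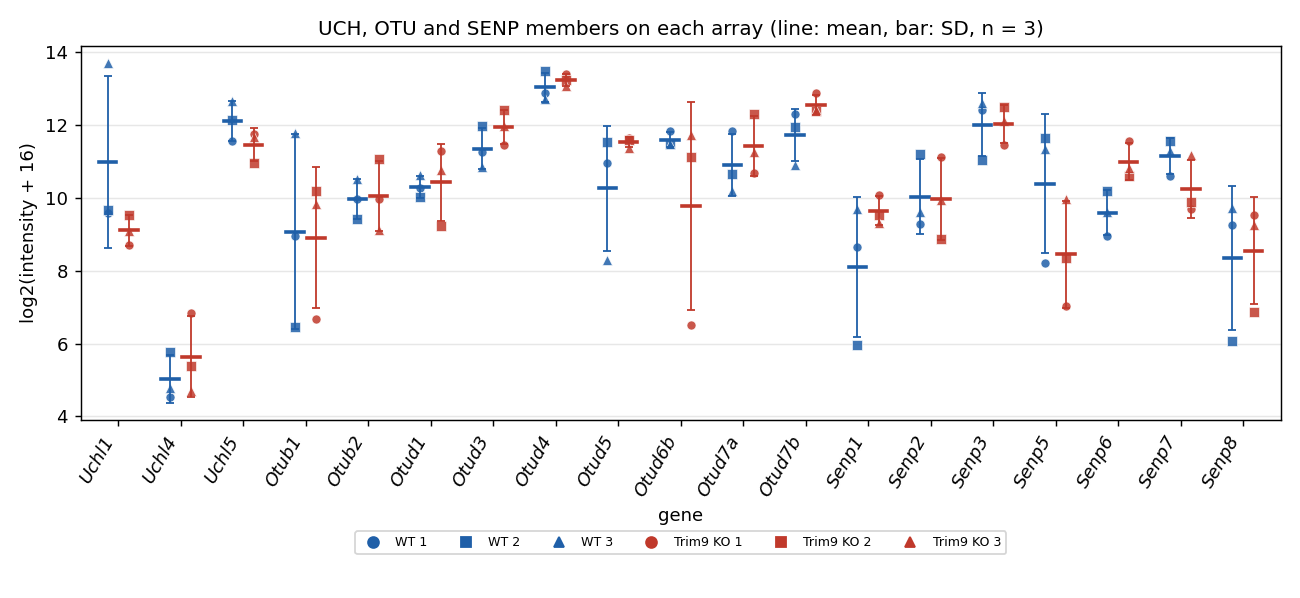
Levels of the UCH, OTU and SENP genes, as log2(intensity + 16), on each array, where blue is WT, red is Trim9 KO and the marker shape giving the replicate (lines are means and bars SDs, n = 3). Single arrays stand apart for Uchl1 (WT replicate 3 at 13.71), Otud6b (Trim9 KO replicate 1 at 6.51) and Otud5 (WT replicate 3 at 8.31), and Senp6 has all red points above the blue.

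Probe sets of the same gene often differed in direction. Of the 66 members, 16 had 1 probe set and 50 had 2 or more, up to 7 for Usp7. In 29 of the 50 the probe sets had differences of both signs, in 12 all had a lower mean in Trim9 KO and in 9 all had a higher mean. Among the 12 were Usp1, Usp4, Usp32, Usp34, Usp46, Usp47, Otub1 and Senp2, and among the 9 were Usp25, Usp30, Usp31, Usp42 and Otud7a. The 2 brightest probe sets of a gene had the same sign in 27 of 50 members (54.0%), against 52.5% of the 9010 genes with 2 or more, and their differences had a Pearson's r of -0.16 across the 50 genes, against 0.088 across the 9010. These probe sets share the same 6 arrays, so r is a description.

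**Figure D5:**
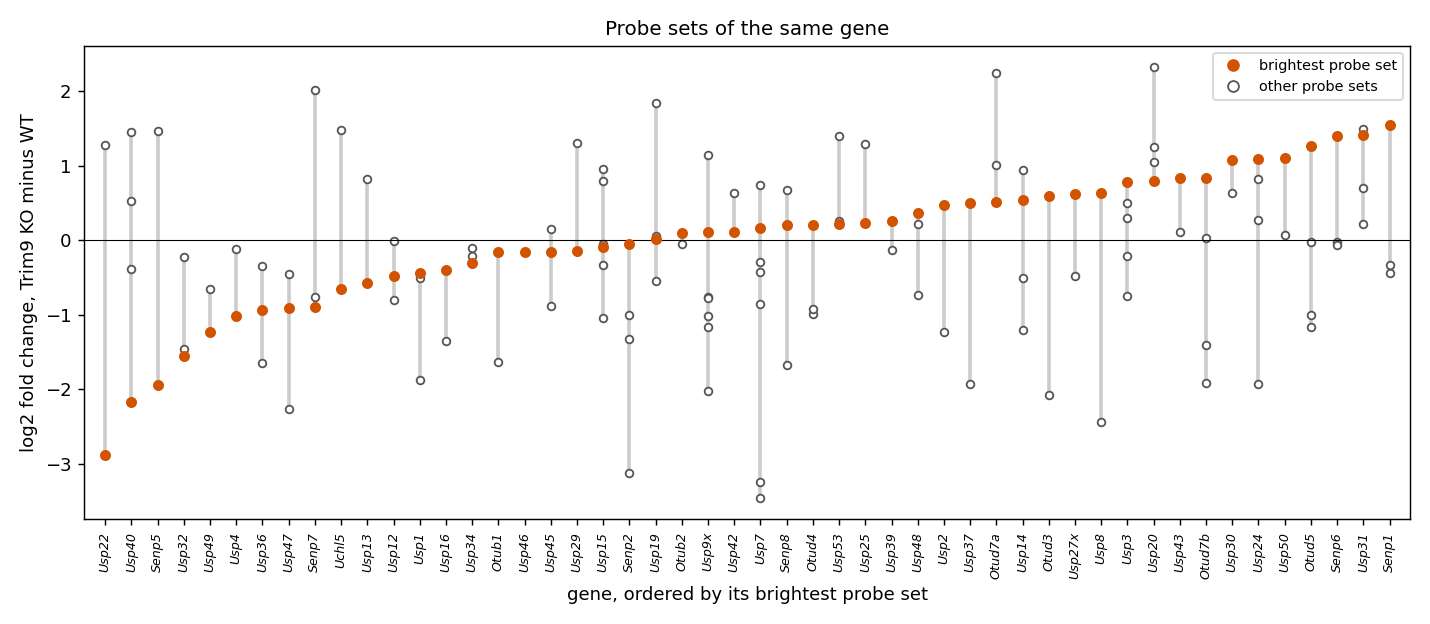
Log2 difference (Trim9 KO minus WT, vertical axis) of every probe set of the 50 members with 2 or more, with the brightest probe set of each gene filled and the others open, joined by a grey line. Genes are ordered by the brightest probe set, and in 29 of them the line crosses 0.

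Genes that work with these enzymes were read in the same way. Of 11 genes of the SUMO pathway analysed here, 9 had a lower mean in Trim9 KO, with a median of -1.05 against 0.14 for all genes. Not all of them attach SUMO. Desi1 (-1.05), Desi2 (-0.27) and Uspl1 (0.52) are SUMO proteases outside the SENP class, and Rnf4 (-0.03) is a ubiquitin ligase. None passed the adjusted threshold. Only Sae1 had an unadjusted p under 0.05 in limma, which is 1 of 11 genes against 2.56% of all genes. The value of this list depended on which probe sets were read, since with the mean of all probe sets of a gene 6 of 11 were lower and the median was -0.13. Without WT replicate 3 the median was -0.55, with 9 of 11 lower.

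The SUMO ligases Pias1 and Pias4 were lower on every Trim9 KO array than on any WT array. Pias1 measured 11.68, 12.82 and 12.72 in WT and 10.93, 10.93 and 10.77 in Trim9 KO (-1.53 ± 0.91 SE). Pias4 measured 9.60, 10.35 and 10.89 in WT and 8.30, 9.28 and 9.16 in Trim9 KO (-1.37 ± 0.93 SE). Ranbp2, a SUMO ligase of the nuclear pore that was singled out after its values were seen, also had no overlap (-1.16). Pias1 and Pias4 were named for their large limma statistics within the list. The other PIAS ligases in the list, Pias2 (0.61) and Pias3 (-1.19), had overlapping genotypes. Every Trim9 KO array was below every WT array for 3 of the 11 genes, against 2.89% of all genes. The same held for 0 of 21 deubiquitinases of other folds, 0 of 8 USP partners and 1 of 7 genes of NEDD8 and ISG15 conjugation. The lists were chosen with earlier results of these data known, and this list was not tested as a set. Sae1, a subunit of the SUMO-activating enzyme, differed by -2.63 ± 1.19 (SE), although WT replicate 1 (8.36) lay among the Trim9 KO arrays (7.20 to 8.83). The 7 SENP genes had a median of 0.0092. The SUMO pathway list itself holds SUMO proteases, and the difference between the lists was not tested.

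Of 21 deubiquitinases of other folds that were measured, 13 had a lower and 8 a higher mean (median -0.12), and none was free of overlap. Without Trim9 KO replicate 1 the direction turned, with 9 of 21 lower and a median of 0.43. The genes with the largest limma statistics were Mysm1, a histone deubiquitinase, Eif3h, and Otulin, which cleaves linear chains. Their log2 differences were 2.43, -1.94 and -1.03, and that of Eif3h was -0.35 without Trim9 KO replicate 1. Josd2, named after its values were seen, differed by -1.41. Of 8 measured partners of USP enzymes, 5 had a lower mean, or 3 of 8 without WT replicate 2. Here the genes with the largest limma statistics were Gmps, a partner of Usp7, Dmwd, and G3bp1, a partner of Usp10. Their log2 differences were -1.89, -1.24 and -0.87, and that of Gmps was -0.42 without Trim9 KO replicate 1. Wdr48, a partner of Usp1 that was named after its values were seen, had the largest upward difference (1.04). Of 7 measured genes of NEDD8 and ISG15 conjugation, 4 had a lower mean, or 3 of 7 without Trim9 KO replicate 2. Ube2l6, the conjugating enzyme for ISG15, was the 1 gene of the 7 lower with no overlap (-1.68), against 2.89% of all genes. All 6 of its values, from 4.68 to 7.83, were dimmer than the median probe set. Nedd8 itself differed by -1.03 and Ube2f, a NEDD8-conjugating enzyme, by 1.14. Of the ubiquitin-activating enzymes, Uba6 differed by -0.62, and by 0.71 without Trim9 KO replicate 1.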

How the data were processed

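RNA of 3 WT and 3 Trim9 KO adult retinas was measured on Affymetrix arrays, 1 per sample. The deposited values are linear intensities, scaled by the authors so that the mean without the lowest and highest 2% of probe sets was equal on all arrays. The submitters' processing notes name MAS5, and the methods of the paper state RMA. No 2 arrays held identical values. Precision is limited by how few arrays there are.

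Values were transformed to log2(intensity + 16). After 64 control probe sets were left out, 45037 were compared with limma 3.58.1 (lmFit, eBayes) in R 4.3.3, with no filter or block and Benjamini-Hochberg adjustment (threshold 0.05). The brightest of the 34945 probe sets naming 1 gene, by mean over the 6 arrays, stood for each of 18193 genes. Permutation tests were exact and two-sided. Tables and figures were made with Python 3.11.15, pandas 2.3.3 and matplotlib 3.10.9. The fit was tested on simulated data.

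The members and lists were chosen with earlier results of these data known. Named genes were all UCH, OTU and SENP members, the 8 USP genes with the largest limma statistic, the 4 with the highest mean signal, 7 with known roles, Trim9, and up to 3 per further list. Usp47, Ranbp2, Josd2 and Wdr48 were added after their values were seen. Alternatives were quantile normalization, equal array medians, leaving out dim probe sets, a replicate block, a trended robust prior, pseudocounts of 1 and 64, averaging each gene's probe sets, leaving out each array and, chosen after the data were seen, leaving out probe sets with the suffixes x and s, which can read several transcripts. Not every gene on these lists was analysed here.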

Additional observations from a re-analysis of the deposited data

How the results depend on the processing

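No member passed the adjusted threshold in limma in any fit tried, and 0 to 2 members had an unadjusted p under 0.05. Arrays with the same replicate number did not vary together (r of the deviations from the genotype means -0.23, -0.08 and 0.033). These r cannot show whether equal numbers marked littermate pairs, since the arrays differed strongly within a genotype. The limma fit with the replicate block called 0 probe sets, with 864 at an unadjusted p under 0.05 against 1296 without the block. With equal array medians, the median was -0.30 for USP and -0.22 for all members, and these genes changed sign: Otub2 to -0.23, Otud1 to -0.21, Otud4 to -0.12, Senp3 to -0.31, Senp8 to -0.12, Usp7 to -0.16, Usp39 to -0.070 and Usp9x to -0.21. After quantile normalization Senp8 was -0.078, and the median of all genes was 0.024. With the mean of all probe sets, the median was 0.41 for UCH, -0.57 for OTU and -0.15 for all members, and sign changes were Otud3 -0.74, Otud4 -0.57, Otud5 -0.23, Otud7b -0.61, Senp7 0.12, Senp8 -0.26, Uchl5 0.41, Usp7 -1.05, Usp14 -0.058, Usp9x -0.64, Dmwd 0.51, G3bp1 0.50 and Wdr48 -0.26. Without probe sets of the suffixes x and s, Otud5 was -1.16, Usp7 -0.30, Usp39 -0.13, Usp14 -0.51 and Wdr48 -0.51. With 1 array left out, the median ranged from 0.13 to 0.68 for OTU and from -0.48 to 0.51 for SENP. Genes that changed sign ranged from -1.47 to 1.21 (Otub1), -0.41 to 0.56 (Otub2), -0.31 to 0.71 (Otud1), -0.62 to 0.54 (Senp2), -0.48 to 0.30 (Senp3), -0.93 to 1.04 (Senp8), -0.20 to 0.50 (Usp7), -0.72 to 0.18 (Usp34), -0.31 to 1.08 (Usp39), -0.12 to 0.33 (Usp9x), -1.26 to 1.50 (Usp5) and -1.37 to 0.71 (Uba6). The cause of these changes was not tested, apart from the left-out array itself. Leaving out dim probe sets, other pseudocounts and the trended prior changed no sign among the named genes they could be computed for.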
